A study of Mus musculus with 52 samples.

Results

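The enzymes described here are the families that process drugs, pollutants and hormones, followed across bone marrow stromal cell cultures given 5 chemicals or vehicle. A gene was a member if its symbol placed it in cytochrome P450 families 1 to 4 (Cyp), or among the flavin monooxygenases (Fmo), carboxylesterases (Ces), epoxide hydrolases (Ephx), glutathione transferases (Gst), sulfotransferases (Sult) or UDP-glycosyltransferases (Ugt), pseudogenes left out. The symbols alone chose the members, and 153 of the 22180 genes with a probe set of their own qualified. Of these, 52 were high enough in the cultures to be tested and 101 were not.

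These enzymes work in sequence. P450s and flavin monooxygenases add oxygen to a foreign or endogenous compound, while carboxylesterases and epoxide hydrolases cleave esters and epoxides. Glutathione transferases, sulfotransferases and UDP-glycosyltransferases then attach glutathione, sulfate or a sugar, which makes the product easier to excrete. Most are richest in liver, but several P450s, carboxylesterases and epoxide hydrolases also act on fatty acids and stored fat in other tissues, and receptors such as AHR, NRF2, PPARs and RXR control many of their genes.

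RNA was measured on 52 arrays (Affymetrix Mouse Gene 2.0 ST) of cultures from female C57BL/6J mice aged 8 weeks, in 13 groups of 4 arrays. Marrow cells of 2 to 4 animals were pooled, and each group held 1 array of each pool, numbered 12, 15, 19 and 20 in the labels. Naive cells, labelled undifferentiated, carried no treatment, and 7 days after plating the other cultures went into a bone-forming medium with ascorbate, β-glycerol phosphate, insulin and 10 nM dexamethasone. They were harvested after 1 or 4 days with DMSO vehicle (0.1%), Rosi (rosiglitazone, an agonist of the fat cell receptor PPARγ, 100 nM), LG268 (LG100268, an agonist of RXR, with which PPARγ pairs, 100 nM), TBT (tributyltin, an organotin biocide, 80 nM), TPhP (triphenyl phosphate, used as a flame retardant and plasticiser) or MEHP (mono-2-ethylhexyl phthalate, the monoester formed from a common plasticiser). The labels give no dose for TPhP or MEHP. No allele or transgene is named for any group.

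All values are deposited log2 array values, and differences between groups are on that scale with their standard error (SE). The 4 values of a group stand in the order of pools 12, 15, 19 and 20. The words rose and fell stand for a limma p under 0.05 after adjustment over all 14911 genes tested. The median of the whole table was 4.05, and levels below it are near background, so that differences reaching down to them have an uncertain size. Array medians ran from 3.97 to 4.15, and precision is limited by how many arrays a group has. Levels of different genes come from different probe sets and are not set against each other.

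The cultures held markers of marrow stroma, with Cxcl12 at 10.93 to 12.32 over the 52 arrays and Col1a1 at 10.08 to 12.41. Col1a1 is also on the osteoblast list. Of the 10 stromal markers, Thy1 lay between 4.55 and 6.96 and Nt5e between 4.29 and 7.13. The cultures also held macrophages: the mean of 12 macrophage markers lay between 8.65 and 10.61 on every array. Of 6 markers of liver cells, the usual source of these enzymes, albumin (Alb) lay between 1.91 and 2.84 and Serpina1a between 2.02 and 3.27. Apoa1 (3.79 to 4.78, median 4.15) and Hnf4a (3.76 to 4.93, median 4.23) lay around the median of the whole table given above. In RNA of whole cultures, a change in the share of a cell type and a change in RNA per cell cannot be told apart.

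Most members were silent or near background in these cultures, although 9 of the 10 families had at least 1 tested member. Of the 153 members, 90 had no array above the median of the table and 29 lay above it on all 52 arrays. The tested share was 34.0% among members and 67.2% among all genes. Glutathione transferases were the family most fully present, with 15 of 18 tested. Epoxide hydrolases had 3 of 4 tested, Fmo 3 of 6, Cyp4 8 of 18, Ces 7 of 18 and Cyp2 13 of 47. None of 7 Cyp3 members was tested, and Cyp3a11, the main drug-oxidising P450 of mouse liver, lay between 2.55 and 3.38. Of 21 sulfotransferases only Sult1a1, a phenol sulfotransferase, was tested (5.38 to 10.53). Of 11 UDP-glycosyltransferases only Ugt8a was tested (3.80 to 4.95), which makes galactosylceramide rather than conjugating drugs. In family Cyp1 the one tested member was Cyp1b1 (8.47 to 10.78), a P450 that oxidises polycyclic hydrocarbons and oestradiol, while Cyp1a1 had 1 array of 52 above the median. Means over the 52 arrays, each on its own probe set, were 9.64 for Gstp1 and 8.80 for Gsto1, 9.15 for Ephx1 and 7.92 for Ephx2, 9.31 for Fmo1 and 6.10 for Fmo5, 8.77 for Cyp4v3 and 6.70 for Cyp4f13, 6.96 for Cyp2c55 and 6.29 for Cyp2j6, and 4.21 for Ces1b and 4.04 for Ces1g. The plot of members by family shows glutathione transferases with means from 3.20 (Gstm3) to 9.64 (Gstp1). The Cyp3, Sult and Ugt members shown lie below the median apart from Sult1a1 and Ugt8a. Probe sets shared by several Ugt1a genes are not among them, and their means of 4.48 and 4.90 lie above it.

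**Figure D1:**
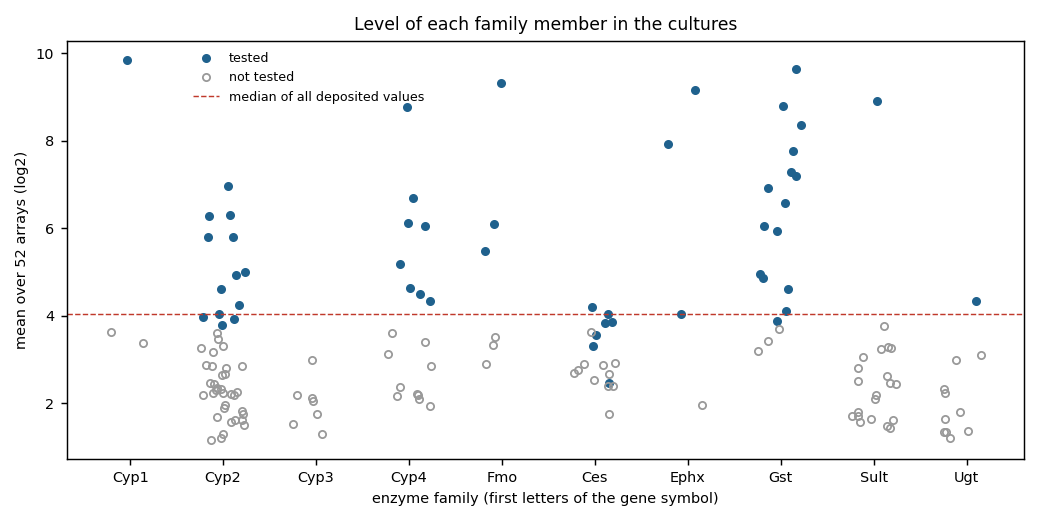
Each point is 1 of the 153 members, placed by its mean over 52 arrays (log2, vertical axis) and its family (horizontal axis); filled points were tested, and the dashed line is the median of all deposited values, 4.05. Of 18 Gst members 15 are filled, of 7 Cyp3 members none is.

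Some members could be tested because single groups carried them over the threshold of 4 arrays above 4.05. Ces1d had 4 such arrays, all with Rosi or MEHP at day 4, and Ces1f had 6, in those groups and TPhP at day 4. Ces4a had 10 and Cyp2e1 had 11 such arrays, none of them in naive or vehicle cultures. For these 4 genes a difference was built into being tested, so the counts below are descriptions.

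The first comparison set vehicle cultures against naive cells, where medium, DMSO and time in culture cannot be told apart. Sult1a1 showed the largest rise of the members on both days. It read 5.98, 5.59, 5.38 and 5.95 in naive cells, 8.56, 9.09, 8.34 and 8.15 after 1 day and 8.54, 9.24, 9.36 and 9.32 after 4 days of vehicle. The groups did not overlap, and the difference was 2.81 ± 0.39 at day 1 and 3.39 ± 0.39 at day 4, a 10.5-fold rise (limma adjusted p = 1.93e-08). Ephx2, the soluble epoxide hydrolase that breaks down epoxides of arachidonic acid, read 4.83, 5.12, 3.99 and 5.62 in naive cells against 6.28, 6.84, 6.72 and 6.73 at day 1 and 6.37, 6.19, 7.30 and 7.34 at day 4. All vehicle arrays lay above all naive arrays, by 1.75 ± 0.34 and 1.91 ± 0.34. Cyp2d22, a relative of the human drug-oxidising enzyme CYP2D6, rose by 1.00 ± 0.21 and 1.33 ± 0.21. Cyp2j6, of a subfamily that forms arachidonic acid epoxides, rose by 0.77 ± 0.12 and 1.05 ± 0.12.

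At day 1, 9 of 52 tested members (17.3%) rose and 2 (3.85%) fell, beside 12.9% and 4.86% of all genes tested. The members' median difference was 0.19, against 0.05 for all genes. Ephx1, the microsomal epoxide hydrolase, rose by 0.42 ± 0.12, Gstt3 by 0.48 ± 0.14, Cyp4f13 by 0.43 ± 0.15 (3 of 4 pools), Cyp4v3 by 0.36 ± 0.11 and Cyp1b1 by 0.30 ± 0.10. The calls of Cyp4f13, Cyp4v3 and Cyp1b1 were each lost without pools 15, 19 or 20 (adjusted p from 0.0585 to 0.275), that of Ephx1 without pool 19 (0.0713) or 20 (0.132), and that of Gstt3 without pool 15 (0.0530) or 20 (0.221). Cyp1b1 was also lost with cyclic loess (0.129) and with no filter (0.0565). The 2 that fell were Ces1b, at 4.11, 3.98, 4.32 and 4.01 against 4.47, 4.52, 4.71 and 4.31 in naive cells, and Cyp4a12b, at 4.41, 4.57, 4.43 and 4.19 against 4.79, 5.08, 4.81 and 4.93. Both stayed near the table's median. Their calls were lost without pool 15 (adjusted p = 0.0940 for Ces1b and 0.129 for Cyp4a12b), and so was the call of Ces1b without pool 19 (0.0776) and that of Cyp4a12b without pool 20 (0.286). The count of 11 calls became 5 without pool 15, 6 without pool 19 and 5 without pool 20. Among cell markers, 3 of 12 macrophage, 2 of 10 stromal and 1 of 8 osteoblast markers rose. Of the others, 2 of 4 B cell, 1 of 7 osteoclast and 1 of 10 fat cell markers fell. The part of these shifts was not tested.

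By day 4 of vehicle, 24 of 52 tested members (46.2%) rose and 1 (1.92%) fell, beside 17.4% and 11.5% of all genes. The members' median difference was 0.45, against 0.05 for all genes tested. Among oxidising enzymes Fmo1, Fmo2, Cyp1b1, 4 of 13 Cyp2 members and 3 of 8 Cyp4 members rose. Fmo1, which oxidises nitrogen and sulfur in drugs, read 7.50, 9.01, 9.81 and 9.83 against 7.78, 7.06, 6.70 and 7.30 in naive cells, a difference of 1.83 ± 0.30 carried by 3 of 4 pools. Fmo2, the lung form of the enzyme, read 4.27, 5.51, 6.47 and 6.69 against 3.93, 3.98, 3.76 and 4.55. In both genes the array of pool 12 lay inside the naive range while the other 3 were above it. Of the 15 Gst members tested, 9 rose and none fell, among them Gstk1 of mitochondria and peroxisomes (0.90 ± 0.19), Gstt2 (0.77 ± 0.27), Gstt1 (0.73 ± 0.17, 3 of 4 pools), Gsto1 (0.72 ± 0.12) and Gstp1 (0.50 ± 0.10). The call of Gstt2 was lost with cyclic loess (adjusted p = 0.0503) and without pool 12 (0.168), 19 (0.0532) or 20 (0.106), and that of Gstt1 without pool 19 (0.0762) or 20 (0.0894). Gstm4, Gstm7, Gstp3 and Gstt3, also among the 9, lost their calls without pool 19 (0.0551 to 0.142). Ces1b remained lower (-0.40 ± 0.12, call lost without pool 15, adjusted p = 0.0544, and without pool 19, 0.105). The count of 25 calls became 14 without pool 19. Cell markers moved as well: 6 of 7 osteoclast, 5 of 10 fat cell (1 fell), 5 of 10 stromal and 4 of 8 osteoblast markers rose. All 4 tested B cell markers and 4 of 5 smooth muscle markers fell. The part of these shifts was not tested.

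Between day 1 and day 4 of vehicle, 11 tested members (21.2%) rose and none fell, beside 4.60% and 8.29% of all genes. With the replicate block 1 member fell, Cyp4f18 (-0.63 ± 0.24, adjusted p = 0.0250, and 0.0751 without the block). Gstt2, a theta-class glutathione transferase, read 5.48, 5.33, 4.46 and 4.63 at day 4 against 4.41, 3.92, 3.67 and 3.83 at day 1. Ces1g, a carboxylesterase of the cluster that includes the fat-hydrolysing Ces1d, read 4.66, 4.23, 4.36 and 4.73 against 3.59, 3.47, 3.56 and 3.72. Neither gene's groups overlapped, and the differences were 1.02 ± 0.27 and 0.91 ± 0.15. Gstt1 rose by 0.83 ± 0.17 and Cyp4f13, of a subfamily that oxidises the ends of fatty acids, by 0.59 ± 0.15 (call lost without pool 19, adjusted p = 0.0744). Fmo1 (1.15 ± 0.30) and Fmo2 (1.08 ± 0.30) rose in 3 of 4 pools only, and both calls were lost without pool 19 or pool 20. The call of Gstt1 was also lost without pool 19 (0.0884). The count of 11 became 3 without pool 19 and 6 without pool 20. Over the same days 5 of 10 fat cell markers rose, and their mean per array went from between 5.82 and 6.15 to between 6.20 and 7.96, lowest in pool 12. Of 7 osteoclast markers 6 rose (median 1.495), and all 5 smooth muscle markers fell (median -1.66). The part of these shifts in the members' differences was not tested.

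**Figure D2:**
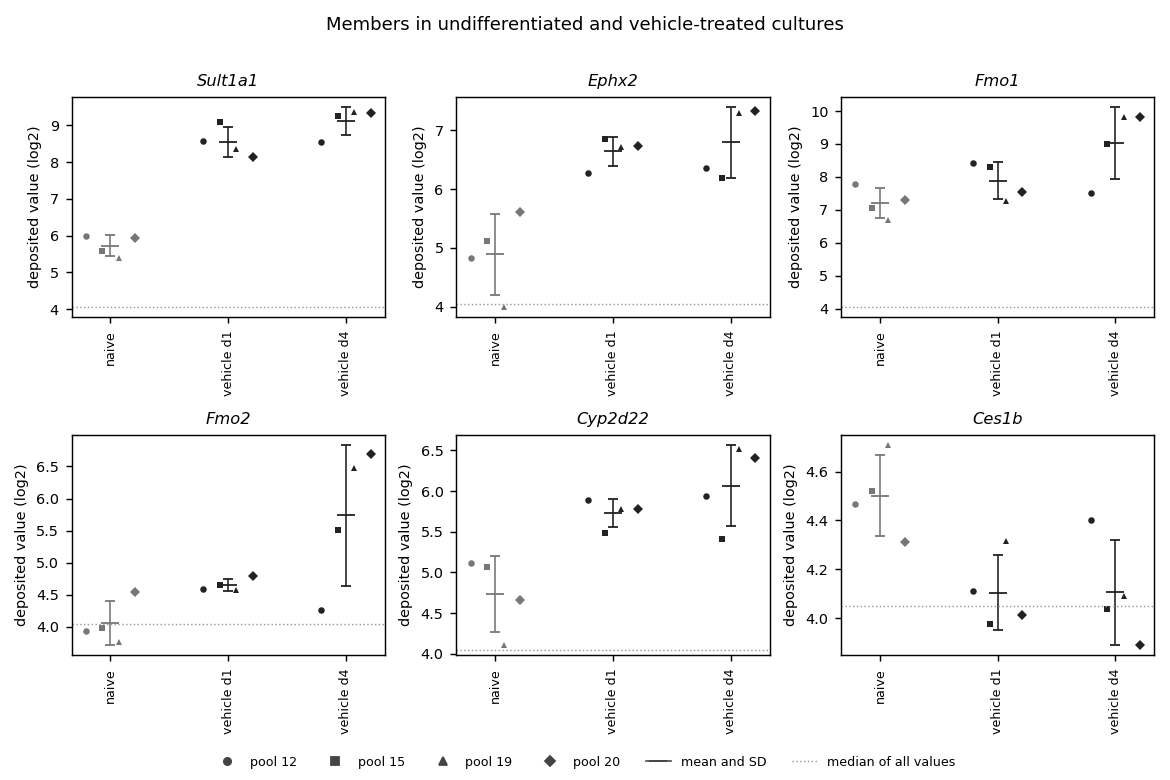
Deposited log2 values (vertical axis) of 6 members in naive cells and after 1 and 4 days of vehicle (horizontal axis); symbols are the 4 pools, bars the mean and SD, and the dotted line the median of all values, 4.05. Sult1a1 and Ephx2 lie above every naive array on both days, and pool 12 is the lowest vehicle array of Fmo1 and Fmo2 at day 4.

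Each chemical was next set against vehicle of the same day, to ask what the chemicals did to the enzymes that could metabolise them. After 1 day, Rosi alone moved members past the threshold. Fmo1 read 10.18, 10.14, 9.91 and 10.14 with Rosi and 8.42, 8.31, 7.26 and 7.55 with vehicle, a difference of 2.21 ± 0.30 (limma adjusted p = 7.78e-07). Every Rosi array lay above every vehicle array by more than 1 log2 unit. Ephx2 read 7.77, 7.99, 8.37 and 8.23 against 6.28, 6.84, 6.72 and 6.73 and rose by 1.45 ± 0.34. Cyp2d22 (0.74 ± 0.21), Gstt1 (0.65 ± 0.17) and Cyp4v3 (0.48 ± 0.11), a fatty acid omega-hydroxylase, also rose. These 5 were 9.62% of tested members, beside 4.16% of all genes that rose and 3.08% that fell. The calls of Cyp2d22 and Gstt1 were each lost without 3 of the pools (adjusted p from 0.0534 to 0.168), and 3 calls were left without pool 15 or pool 20. Fat cell markers had already risen with Rosi, 9 of 10, to array means of 8.90 to 9.09 against 5.82 to 6.15 with vehicle, and their part was not tested.

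With the other 4 chemicals no member rose or fell at day 1 by limma's test. At an unadjusted p under 0.05 there were 1 member with LG268, 7 with TBT, 5 with TPhP and 6 with MEHP. Few genes of any kind passed: 0.228% rose and 0.0134% fell with LG268, 0.496% and 0.0469% with TBT, 0.181% and 0.0335% with TPhP, and 0.362% and 0.161% with MEHP. Ephx2 read 7.31, 7.45, 8.04 and 7.83 with MEHP, above every vehicle array, a difference of 1.02 ± 0.34. Its adjusted p was 0.271, and 0.0225 with the pool as replicate block, the only member call that the block added at this day. The differences in Ephx2 were 0.65 ± 0.34 with LG268, 0.87 ± 0.34 with TBT and 0.84 ± 0.34 with TPhP. When each fit held only the arrays compared, Ephx2 was called with TBT, TPhP and MEHP (limma adjusted p = 0.0240, 0.0377 and 0.0302). Cyp2d22 was then called with MEHP (0.0319). Without pool 12, 1 member passed with TPhP and 1 with MEHP. Of 10 fat cell markers 2 rose with LG268, 6 with TBT, 5 with TPhP and 6 with MEHP. The 5 comparisons share the vehicle arrays.

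By day 4 the oxidising enzymes with Rosi were far from those with vehicle. Cyp2e1, which oxidises ethanol and small solvents, read 9.22, 8.61, 9.85 and 9.80 with Rosi and 3.43, 3.68, 3.31 and 3.56 with vehicle. It was below the table's median in all 4 vehicle arrays and far above it in all 4 Rosi arrays. The measured difference, 5.88 ± 0.32, starts from background and belongs to a gene that was tested because of groups like this one, so it is a description. Cyp2c55, a P450 that hydroxylates arachidonic and linoleic acid, read 9.60, 7.84, 9.72 and 9.40 against 5.22, 5.91, 5.47 and 6.13. Its difference was 3.45 ± 0.41, an 11.0-fold rise with no overlap. Cyp2f2, known in lung for activating naphthalene, read 6.08, 5.07, 6.12 and 6.28 against 3.84, 4.28, 4.63 and 4.51, and its call (1.57 ± 0.58) was lost without pool 20 (adjusted p = 0.0903). Cyp4b1, an extrahepatic P450 that activates plant and industrial toxins, rose by 1.27 ± 0.22. Fmo1 rose by 1.59 ± 0.30 and Fmo5 by 0.71 ± 0.13. Smaller rises were found in Cyp2u1 (0.87 ± 0.21), a long-chain fatty acid hydroxylase, in Cyp2d22 (0.80 ± 0.21) and in Cyp2j9 (0.32 ± 0.14, 3 of 4 pools, adjusted p = 0.0496 and 0.0505 with the replicate block; lost without pools 15, 19 or 20, from 0.0878 to 0.244).

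Against these rises, 4 P450s fell with Rosi. Cyp1b1 read 8.95, 9.08, 8.47 and 8.54 with Rosi and 9.55, 9.71, 10.09 and 9.96 with vehicle. The groups did not overlap, and the difference was -1.07 ± 0.10, or 2.10-fold lower. Cyp4f18, a hydroxylase of leukotriene B4 in white blood cells, fell by 0.74 ± 0.24 (call lost without pool 20, adjusted p = 0.0732). Cyp2a22 differed by -0.48 ± 0.15 (call lost without pool 12, adjusted p = 0.150, and without pool 15, 0.0573) and Cyp4v3 by -0.37 ± 0.11 (3 of 4 pools; lost without pool 19, 0.166, and without pool 20, 0.116).

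The hydrolysing enzymes split in the same cultures. Ephx2 read 10.68, 9.94, 11.05 and 11.17 with Rosi against 6.37, 6.19, 7.30 and 7.34, a 15.1-fold rise (3.91 ± 0.34, limma adjusted p = 1.07e-12). Ephx1, the microsomal form that detoxifies epoxides of pollutants, ran from 8.51 to 9.36 with Rosi against 9.47, 9.70, 9.71 and 9.78 and fell by 0.72 ± 0.12. Both epoxide hydrolases thus left the vehicle range without overlap, in opposite directions. Among carboxylesterases, Ces1d, a triacylglycerol hydrolase of liver and fat, read 5.78, 4.00, 5.50 and 6.08 against 2.02, 2.11, 1.86 and 2.09 (3.32 ± 0.27 as measured). Ces1f, a second fat-cell hydrolase, read 4.78, 3.85, 5.99 and 5.74 against 2.95 to 3.13 (2.06 ± 0.31 as measured). For both, vehicle lay below the median and the gene was tested through the groups where it is high, so the size is uncertain and given as a description. Ces4a, also tested only through groups where it is high, differed by 1.31 ± 0.17, again given as a description. Ces1g, which had risen in vehicle cultures over the 4 days, read 3.90, 3.49, 3.93 and 3.64 and fell by 0.75 ± 0.15, back to the levels of naive cells (3.93, 3.33, 3.51 and 3.74).

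Among conjugating enzymes, the called differences lay between -1.06 and 1.03. Sult1a1 read 10.23, 10.21, 10.03 and 10.12 against 8.54, 9.24, 9.36 and 9.32, a rise of 1.03 ± 0.39 beyond its rise in vehicle cultures (call lost without pool 19, adjusted p = 0.0712, and without pool 20, 0.0879). Its differences at day 4 were similar with LG268 (0.84), TBT (0.98), TPhP (0.85) and MEHP (0.92), though none of these was called in the main fit. Of 15 Gst members, Gsta4 (0.99 ± 0.30), which conjugates the lipid peroxidation product 4-hydroxynonenal, Gstm7 (0.90 ± 0.26), Gsto1 (0.82 ± 0.12), which reduces dehydroascorbate, Gstk1 (0.75 ± 0.19) and Gsto2 (0.47 ± 0.12) rose. The theta-class enzymes Gstt1 and Gstt3 fell. Gstt1 read 6.63, 6.17, 5.98 and 6.29 against 6.80, 6.97, 7.67 and 7.58 (-0.99 ± 0.17), and Gstt3 read 5.27, 5.42, 4.93 and 5.07 against 5.73, 6.07, 6.47 and 6.65 (-1.06 ± 0.14). All Rosi arrays of both genes were below all vehicle arrays. The call of Gsta4 was lost without pool 12 (0.271), whose vehicle array was the lowest (5.31, 6.30, 7.25 and 7.37), and that of Gstm7 without pool 20 (0.0516).

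In all, 19 of 52 tested members (36.5%) rose and 8 (15.4%) fell with Rosi at day 4, beside 21.3% and 27.7% of all genes tested. The members' median difference was 0.12, against -0.05 for all genes. The cell makeup of these cultures moved as well. All 10 fat cell markers rose, with an array mean of 10.34 to 10.85 against 6.20 to 7.96 with vehicle. All 12 macrophage markers fell (median -1.16), with an array mean of 9.10, 10.27, 8.71 and 8.65 against 10.18 to 10.61. Of 10 stromal markers 7 fell (8.35 to 8.90 against 8.97 to 9.55), as did 6 of 8 osteoblast, 4 of 7 osteoclast and 4 of 5 smooth muscle markers. The part of these shifts in the members' differences was not tested. The Rosi array of pool 15 had the highest macrophage mean of the 4, the lowest fat cell mean (10.34) and the lowest endothelial mean (5.53). It also had the lowest values of Cyp2e1, Cyp2c55, Ces1d, Ces1f and Ephx2 among the 4. Whether these go together was not tested. Without that pool the differences were 6.19 for Cyp2e1, 3.96 for Cyp2c55, 3.80 for Ces1d, 3.97 for Ephx2 and -1.22 for Cyp1b1.

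**Figure D3:**
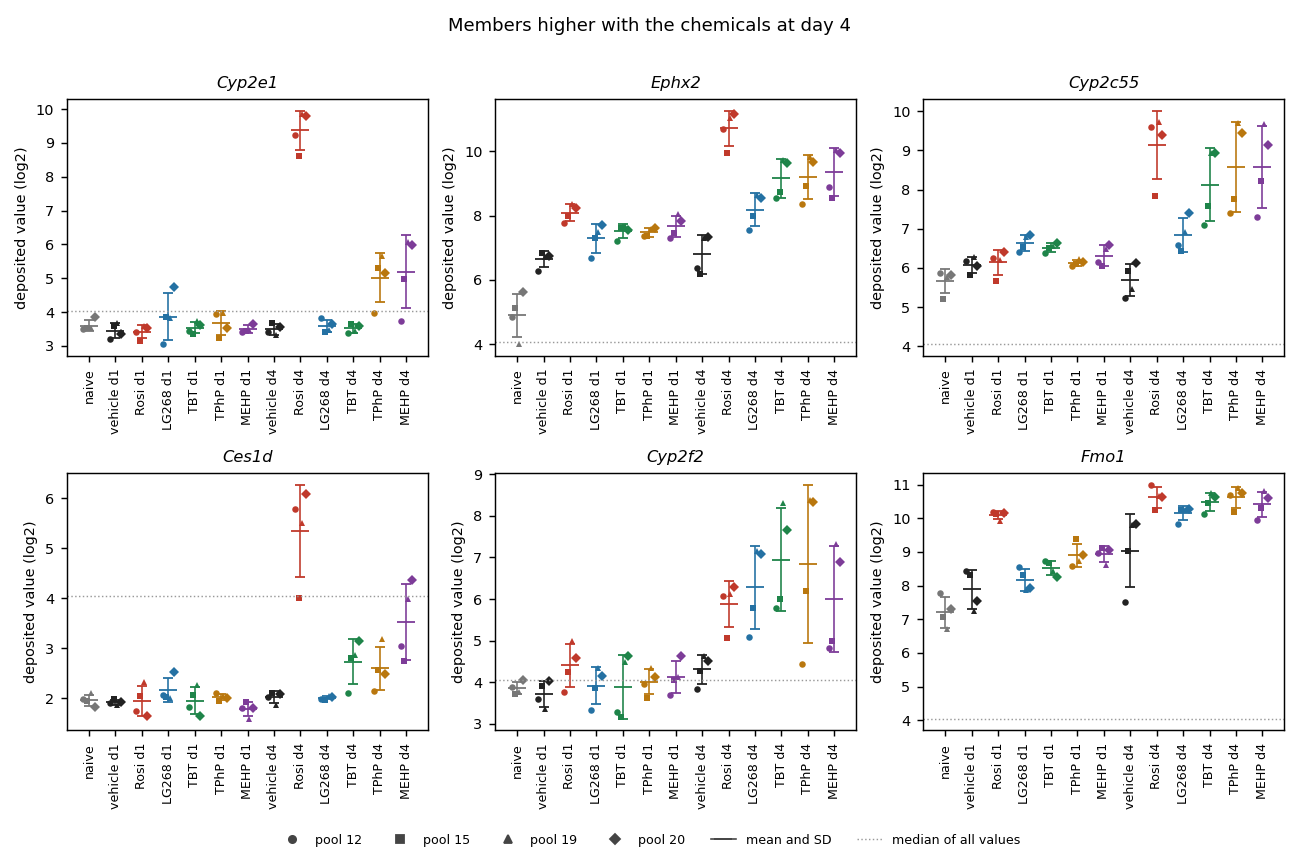
Deposited log2 values (vertical axis) of 6 members that rose with chemicals, in all 13 groups (horizontal axis, d1 and d4 for day 1 and day 4); symbols are pools, bars the mean and SD, and the dotted line the median of all values, 4.05. Cyp2e1 reaches 8.61 to 9.85 with Rosi at day 4 and stays between 3.31 and 3.68 with vehicle.

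Start regions are shown for the 7 members with the largest called change with a chemical that have a sequence here, to let the members that rose together and the ones that fell be read side by side. Each is the 250 bases before the start, from RefSeq (GRCm38.p6), written 5′ to 3′ on the gene's own strand. Capitals mark matches, on either strand, to AGGTCA (the half-site of PPAR, RXR and other nuclear receptors) or GCGTG (the core bound by AHR with ARNT). Cyp2e1 (chr7:140763569-140763818, plus strand) and Cyp2c55 (chr19:39006769-39007018, plus strand) rose furthest with Rosi among those shown. Cyp2f2 (chr7:27119705-27119954, plus strand), Fmo2 (chr1:162898494-162898743, minus strand) and Ces4a (chr8:105131550-105131799, plus strand) rose with at least 3 of the chemicals, as did Cyp4b1 (chr4:115647722-115647971, minus strand), and Cyp1b1 (chr17:79715062-79715311, minus strand) fell with Rosi.
Cyp2e1: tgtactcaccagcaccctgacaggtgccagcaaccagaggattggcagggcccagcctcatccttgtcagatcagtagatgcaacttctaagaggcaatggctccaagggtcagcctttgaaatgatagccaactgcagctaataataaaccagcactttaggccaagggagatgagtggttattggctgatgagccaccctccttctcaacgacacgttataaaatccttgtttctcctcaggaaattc
Cyp2c55: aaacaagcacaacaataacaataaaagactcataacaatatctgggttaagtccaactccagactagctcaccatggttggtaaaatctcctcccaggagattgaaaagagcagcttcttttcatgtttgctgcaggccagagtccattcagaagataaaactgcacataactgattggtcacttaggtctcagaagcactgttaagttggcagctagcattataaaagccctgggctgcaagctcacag
Cyp2f2: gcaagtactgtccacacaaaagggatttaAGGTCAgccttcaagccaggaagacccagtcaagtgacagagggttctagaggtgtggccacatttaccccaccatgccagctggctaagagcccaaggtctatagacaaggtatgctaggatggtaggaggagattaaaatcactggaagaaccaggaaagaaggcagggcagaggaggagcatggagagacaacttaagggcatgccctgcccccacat
Fmo2: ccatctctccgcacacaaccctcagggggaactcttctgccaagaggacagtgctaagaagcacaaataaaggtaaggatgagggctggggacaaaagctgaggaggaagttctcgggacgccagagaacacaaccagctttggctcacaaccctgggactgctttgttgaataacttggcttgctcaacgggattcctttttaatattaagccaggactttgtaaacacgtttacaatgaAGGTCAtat
Ces4a: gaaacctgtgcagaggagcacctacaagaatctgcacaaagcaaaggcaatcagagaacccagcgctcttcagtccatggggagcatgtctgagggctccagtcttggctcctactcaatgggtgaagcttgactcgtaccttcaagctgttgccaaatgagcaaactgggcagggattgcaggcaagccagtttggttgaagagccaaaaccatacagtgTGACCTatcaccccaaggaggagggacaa
Cyp4b1: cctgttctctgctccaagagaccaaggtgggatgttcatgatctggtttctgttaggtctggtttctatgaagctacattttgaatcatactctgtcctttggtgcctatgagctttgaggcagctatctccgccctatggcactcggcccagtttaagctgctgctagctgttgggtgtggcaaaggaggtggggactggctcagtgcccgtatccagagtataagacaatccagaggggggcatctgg
Cyp1b1: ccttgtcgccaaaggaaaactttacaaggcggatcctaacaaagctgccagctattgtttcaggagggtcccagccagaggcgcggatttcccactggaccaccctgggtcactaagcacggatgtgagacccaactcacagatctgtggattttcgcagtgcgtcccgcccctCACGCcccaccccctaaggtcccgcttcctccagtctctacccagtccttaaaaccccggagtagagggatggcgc

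Cyp2f2, Fmo2 and Ces4a each hold 1 AGGTCA, whose first base lies 221, 9 and 29 bases before the start, and Cyp1b1 holds 1 GCGTG at 76 bases. The windows of Cyp2e1, Cyp2c55 and Cyp4b1 hold neither, nor the antioxidant core TGACNNNGC. Windows were found for 126 of the 153 members, 41 of them tested; a gene may have several, and Fmo2 has a second one without a match. Ephx2, Ces1d, Ces1f and Fmo1 are named only. Among the 48 windows of tested members, 8.33% held AGGTCA, 22.9% GCGTG and 6.25% TGACNNNGC. Among the 146 windows of all members the shares were 21.9%, 15.1% and 2.74%, and among all 32851 windows 14.0%, 28.2% and 10.2%. The direct repeat of the half-site spaced by 1 base, the form that PPAR and RXR bind together, was in none of the members' windows and in 0.0335% of all. A match is a description of letters in the window.

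LG268 and TBT at day 4 raised Cyp2f2, the flavin monooxygenases Fmo1 and Fmo2, Ephx2 and Cyp1b1. Cyp2f2 read 5.09, 5.79, 7.15 and 7.08 with LG268 and 5.80, 6.00, 8.31 and 7.66 with TBT, against 3.84, 4.28, 4.63 and 4.51 with vehicle. All arrays of both groups were above vehicle and higher in pools 19 and 20 than in 12 and 15, and the differences were 1.96 ± 0.58 and 2.63 ± 0.58. With LG268 the call was lost without pool 15 (adjusted p = 0.126), pool 19 (0.128) or pool 20 (0.206). Fmo2 read 6.67, 7.66, 7.38 and 7.10 with LG268 and 6.39, 7.15, 6.76 and 7.00 with TBT, against 4.27, 5.51, 6.47 and 6.69 with vehicle. The rises of 1.47 ± 0.30 and 1.09 ± 0.30 overlapped vehicle, whose pool 12 array was far below the rest, and both calls were lost without pool 15 (0.0665 and 0.103). Fmo1 rose by 1.12 ± 0.30 (lost without pool 12, 0.0664, pool 15, 0.138, or pool 20, 0.0550) and 1.45 ± 0.30. Ephx2 read 7.56, 7.98, 8.64 and 8.55 with LG268 and 8.55, 8.73, 9.73 and 9.62 with TBT, with rises of 1.38 ± 0.34 and 2.36 ± 0.34 (lost with LG268 without pool 15, 0.0954).

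Cyp1b1 rose where it had fallen with Rosi. It read 10.23, 10.60, 10.78 and 10.68 with LG268 and 10.30, 10.37, 10.35 and 10.32 with TBT, above every vehicle array in both cases (0.74 ± 0.10 and 0.51 ± 0.10, limma adjusted p = 3.37e-06 and 0.000417). Cyp4f18 (0.82 ± 0.24 and 0.73 ± 0.24), Gstt1 (0.55 ± 0.17 and 0.60 ± 0.17) and, with LG268, Cyp4v3 (0.40 ± 0.11) rose too. The 3 calls with LG268 were each lost without at least 3 of the pools (adjusted p from 0.0649 to 0.358), that of Cyp4f18 with TBT without pool 19 (0.182) or 20 (0.118), and that of Gstt1 with TBT without pool 15 (0.242). Cyp2d22 rose by 1.05 ± 0.21 and 0.94 ± 0.21, and Gsta4 by 1.15 ± 0.30 and 1.06 ± 0.30 (lost without pool 12, 0.0620 and 0.0532, or without pool 15, 0.106 and 0.0723). Cyp2c55 read 7.09, 7.57, 8.92 and 8.93 with TBT and rose by 2.44 ± 0.41, while with LG268 it read 6.57, 6.43, 6.92 and 7.42, a difference of 1.15 ± 0.41 with an adjusted p of 0.0878 (0.0193 with the replicate block). Cyp2e1 read 3.82, 3.42, 3.48 and 3.64 with LG268 and 3.40, 3.65, 3.44 and 3.58 with TBT, with differences of 0.10 ± 0.32 and 0.02 ± 0.32, and overlapped vehicle.

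Few members fell. Gstp1, the placental-type glutathione transferase, read 9.63, 9.43, 9.51 and 9.29 with LG268 against 10.16, 9.85, 9.77 and 9.73 with vehicle (-0.41 ± 0.10; lost without pool 19, adjusted p = 0.0502, or pool 20, 0.0537). With TBT, Cyp2s1, an extrahepatic P450, read 3.80, 3.81, 3.94 and 4.12 against 4.19, 4.28, 4.86 and 4.73 (-0.59 ± 0.17; lost without pool 19, 0.153). Ugt8a differed by -0.53 ± 0.18 with TBT (lost without pool 12, 0.0511, pool 15, 0.217, or pool 20, 0.0953). With LG268, 10 of 52 tested members (19.2%) rose and 1 (1.92%) fell, beside 4.21% and 2.26% of all genes. With TBT, 13 rose and 2 (3.85%) fell, beside 10.6% and 9.42%. Median differences were 0.11 with both, against -0.02 and -0.04 for all genes. The 11 calls with LG268 became 3 without pool 15, 6 without pool 19 and 5 without pool 20, and the 15 with TBT became 9 without pool 15. Fat cell markers rose with both (6 and 9 of 10, with array means of 8.12 to 9.05 and 9.36 to 10.22). Of 10 stromal markers 3 rose with LG268, while 2 rose and 1 fell with TBT. Stromal array means lay at 9.71 to 9.83 and 9.50 to 9.69, against 8.97 to 9.55 with vehicle. Of 4 B cell markers 2 rose with TBT, and neutrophil markers fell with both (6 and 3 of 9). Osteoclast markers fell too (3 and 5 of 7), as did osteoblast markers (1 and 5 of 8), endothelial markers rose (2 and 5 of 5), and 4 of 5 smooth muscle markers fell with TBT. The part of these shifts was not tested.

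TPhP and MEHP at day 4 raised Cyp2c55, Cyp2e1 and Cyp2f2, which had also risen with Rosi. Cyp2c55 read 7.40, 7.77, 9.70 and 9.45 with TPhP and 7.29, 8.22, 9.67 and 9.13 with MEHP, against 5.22, 5.91, 5.47 and 6.13 with vehicle. It rose by 2.89 ± 0.41 and 2.89 ± 0.41, with pools 19 and 20 higher than 12 and 15 and no overlap with vehicle. Cyp2e1 read 3.97, 5.31, 5.65 and 5.14 with TPhP and 3.75, 4.97, 6.06 and 5.99 with MEHP. It rose by 1.52 ± 0.32 and 1.70 ± 0.32, yet in pool 12 it stayed below the median of the table with both. Cyp2e1 was tested through groups where it is high, these 2 among them, so both differences are descriptions. Cyp2f2 read 4.44, 6.20, 8.39 and 8.34 with TPhP and 4.83, 5.00, 7.32 and 6.88 with MEHP, with differences of 2.53 ± 0.58 and 1.69 ± 0.58. Both calls were lost without pool 20 (adjusted p = 0.0629 and 0.210) and that of MEHP also without pool 19 (0.196).

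Ephx2 and Ephx1 diverged here too. Ephx2 read 8.35, 8.93, 9.83 and 9.67 with TPhP and 8.88, 8.56, 10.03 and 9.93 with MEHP, rising by 2.40 ± 0.34 and 2.55 ± 0.34. Ephx1 read 9.30, 9.34, 8.97 and 9.02 with TPhP and 8.91, 9.24, 8.95 and 8.82 with MEHP, against 9.47, 9.70, 9.71 and 9.78 with vehicle, with differences of -0.51 ± 0.12 and -0.68 ± 0.12. The call with TPhP was lost without pool 19 (adjusted p = 0.0732) or pool 20 (0.0858). Fmo1 rose by 1.59 ± 0.30 and 1.38 ± 0.30, and Fmo2 rose with MEHP (1.05 ± 0.30). Ces1d rose with MEHP, at 3.04, 2.75, 3.98 and 4.36 (1.51 ± 0.27), and Ces1f with TPhP, at 3.11, 3.86, 4.46 and 4.04 (0.84 ± 0.31; lost without pools 15, 19 or 20, adjusted p from 0.0988 to 0.298). Ces4a rose with both (0.52 ± 0.17, 3 of 4 pools, and 0.53 ± 0.17), and both calls were lost without pool 19 (0.398 and 0.217) or pool 20 (0.141 and 0.0641). Ces1d, Ces1f and Ces4a were tested only through groups where they are high, so these differences are descriptions.

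Members that fell were few and changed little. With TPhP, Cyp2s1 read 3.90, 3.97, 3.80 and 4.05 (-0.58 ± 0.17; lost without pool 19, adjusted p = 0.278, or pool 20, 0.0707) and Ces1g read 4.06, 3.96, 4.07 and 3.96 (-0.48 ± 0.15; lost without pool 12, 0.0804, or pool 20, 0.225). With MEHP, Gstm2, a mu-class glutathione transferase, read 7.11, 7.23, 7.63 and 7.63 against 7.29, 7.64, 8.28 and 8.27 (-0.47 ± 0.15; lost without pool 19, 0.168, or pool 20, 0.139). With TPhP, 8 of 52 tested members (15.4%) rose and 3 (5.77%) fell, beside 11.0% and 7.94% of all genes. With MEHP, 12 (23.1%) rose and 2 (3.85%) fell, beside 12.1% and 11.7%. Median differences were 0.04 with both, against -0.03 and -0.05. The 11 calls with TPhP became 6 without pool 19 and 4 without pool 20, and the 14 with MEHP became 7 without either. All 10 fat cell markers rose with both (9.74 to 10.77 and 9.67 to 10.72), and 4 and 5 of 8 osteoblast markers fell. With each, 4 of 7 osteoclast and 4 of 5 smooth muscle markers fell, and 3 of 5 endothelial markers rose with MEHP. The TPhP array of pool 12 had a neutrophil marker mean of 4.67 against 7.29 to 8.80 on the other 3. The part of these shifts was not tested.

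**Figure D4:**
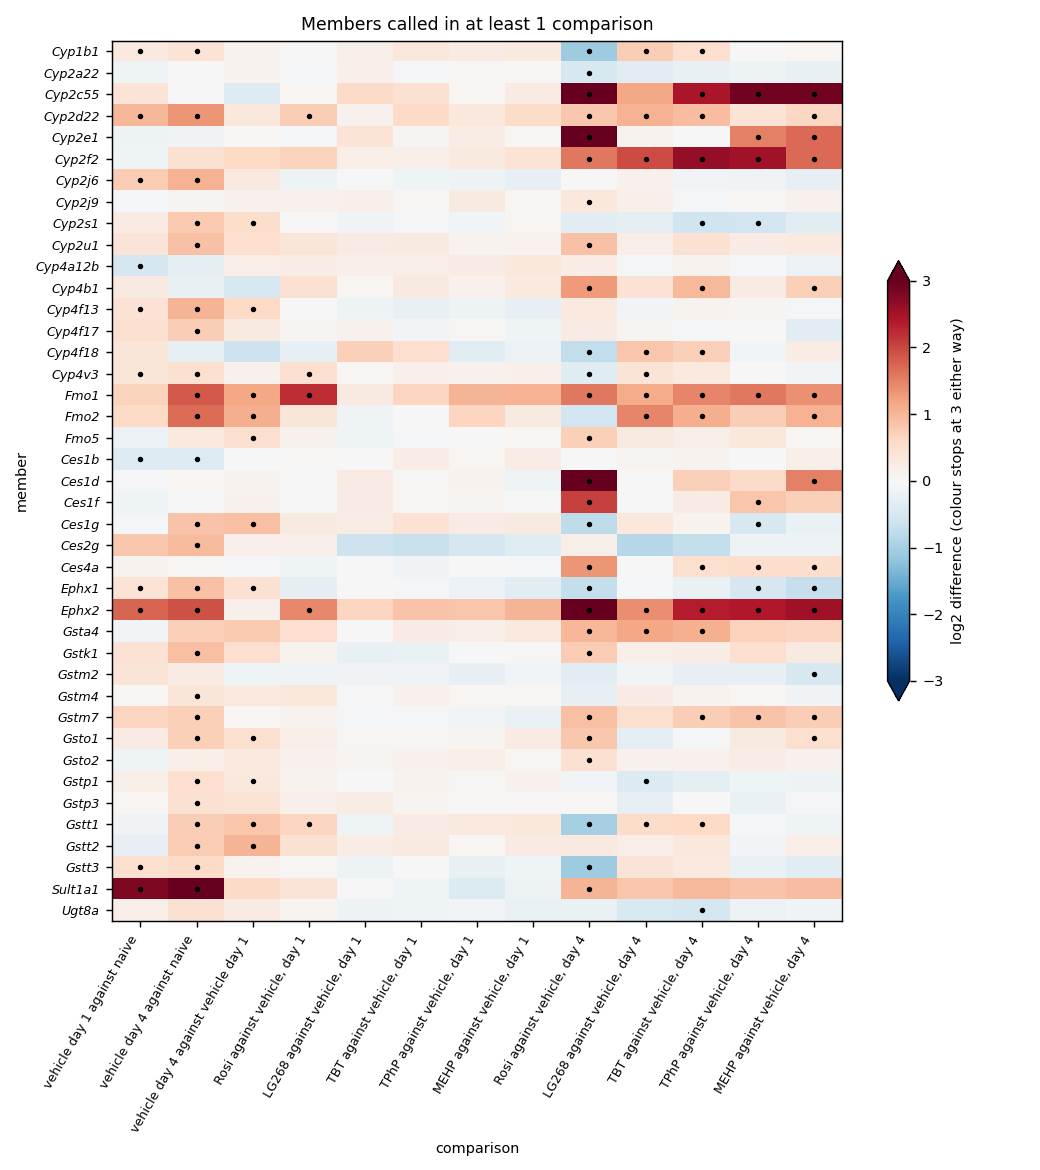
Log2 differences (colour, which stops at 3 either way) of the 41 members called in at least 1 of 13 comparisons; rows are members by family, columns are comparisons, and a black dot marks limma adjusted p under 0.05. The Ephx2 and Fmo1 rows are red in every column of a chemical at day 4, where Cyp1b1 is blue with Rosi and red with LG268 and TBT.

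Set side by side at day 4, few members moved the same way with every chemical. The 5 comparisons share the 4 vehicle arrays, so their values are not independent. Ephx2 rose with each chemical, by 3.91 with Rosi, 1.38 with LG268, 2.36 with TBT, 2.40 with TPhP and 2.55 with MEHP. Fmo1 rose with each as well, by 1.59, 1.12, 1.45, 1.59 and 1.38 in that order. Cyp2f2 rose by 1.57, 1.96, 2.63, 2.53 and 1.69. Sult1a1 differed by 1.03, 0.84, 0.98, 0.85 and 0.92 in the same order, and in the main fit it was called with Rosi only. With the replicate block it was also called with TBT, TPhP and MEHP (limma adjusted p = 0.0195, 0.0449 and 0.0251). Cyp2c55 differed by 1.15 with LG268 (limma adjusted p = 0.0878, and 0.0193 with the replicate block) and rose with Rosi, TBT, TPhP and MEHP. Ces4a and Gstm7 were called with the same 4, but Ces4a with TBT was lost without pools 15, 19 or 20 (adjusted p from 0.0745 to 0.225). Ces4a was tested only through these 4 groups, so its calls are descriptions. Gstm7 was lost with TBT without each of the 4 pools (0.0799 to 0.121) and with no filter (0.0502), and with TPhP and MEHP without pool 19 (0.147 and 0.211) or pool 20 (0.0991 and 0.175). Cyp2d22 rose with Rosi, LG268, TBT and MEHP, the last lost without pool 19 (0.0580) or pool 20 (0.126). Cyp2e1 was called with Rosi, TPhP and MEHP, but it was tested through these groups, so its calls are descriptions. Fmo2 stood at 5.21, 5.15, 4.97 and 5.32 with Rosi, below the arrays of the other 4 chemicals, and its difference from vehicle was -0.57 ± 0.30 (adjusted p = 0.110). Cyp1b1, Cyp4f18, Cyp4v3 and Gstt1 were called in opposite directions, lower with Rosi and higher with LG268.

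**Figure D5:**
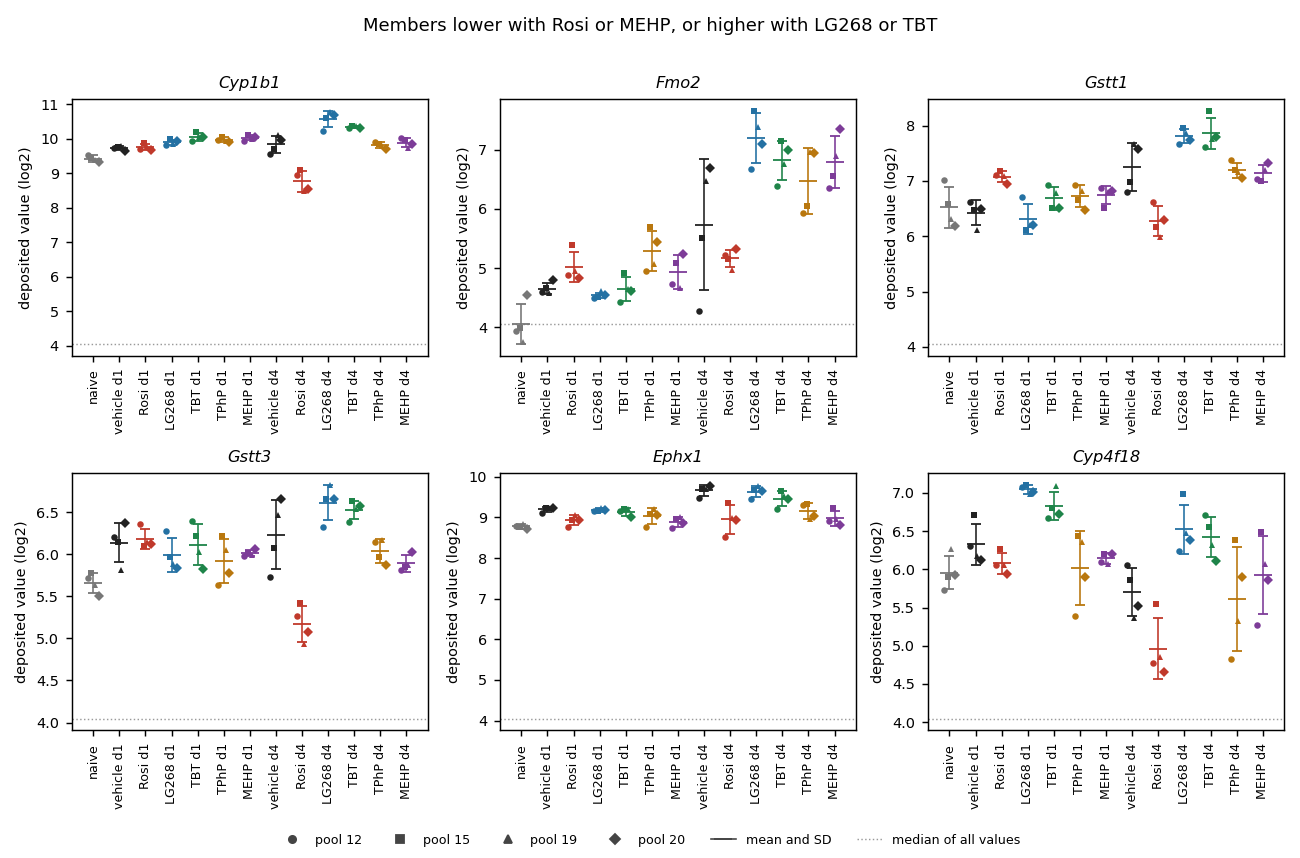
Deposited log2 values (vertical axis) of 6 members in all 13 groups (horizontal axis, d1 and d4 for day 1 and day 4); symbols are pools, bars the mean and SD, and the dotted line the median of all values, 4.05. Cyp1b1 is lowest with Rosi at day 4 (8.47 to 9.08) and highest with LG268 at day 4 (10.23 to 10.78).

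Direct comparisons between chemicals were made in 10 pairs, which share the Rosi or LG268 arrays. Doses were 100 nM for Rosi and LG268 and 80 nM for TBT, and are not given for TPhP and MEHP, so only Rosi and LG268 are matched. At day 1 Fmo1 differed from its level with Rosi by -1.93 with LG268, -1.57 with TBT, -1.20 with TPhP and -1.16 with MEHP (SE 0.30 each). Calls at day 1 were 5 members for LG268 against Rosi, 1 for TBT, 1 for TPhP and 2 for MEHP, beside 6.99%, 2.61%, 2.32% and 1.88% of all genes changed either way. The 5 with LG268 also held Cyp4f18, higher by 0.97 ± 0.24, and Gstt1 (-0.77 ± 0.17), Cyp4v3 (-0.41 ± 0.11) and Gstm4 (-0.37 ± 0.11), all lower than with Rosi, and each of these 4 calls was lost without at least 1 of pools 15, 19 and 20. Calls of Fmo1 were lost without pool 20 with TBT (adjusted p = 0.0790), and without pools 15, 19 or 20 with TPhP (0.0716 to 0.222) and MEHP (0.162 to 0.253).

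At day 4 the pairs with Rosi were far apart in both directions. Calls were 27 members for LG268, 21 for TBT, 15 for TPhP and 17 for MEHP, beside 47.8%, 38.1%, 28.2% and 26.1% of all genes changed either way, so members stood near the background. Cyp2e1 differed from Rosi by -5.78 ± 0.32 with LG268, -5.86 ± 0.32 with TBT, -4.35 ± 0.32 with TPhP and -4.18 ± 0.32 with MEHP. With LG268 and TBT it was at background, so the sizes are uncertain, as they are for Ces1d. Both genes were tested through groups where they are high, Rosi at day 4 among them, so their differences are descriptions. In the same order Ces1d differed by -3.33, -2.61, -2.75 and -1.81 (SE 0.27), and Ephx2 by -2.53, -1.55, -1.52 and -1.36 (SE 0.34). Fmo2 was higher than with Rosi by 2.04, 1.66, 1.30 and 1.62 (SE 0.30). Cyp1b1 was higher by 1.81, 1.58, 1.05 and 1.13 (SE 0.10), Gstt1 by 1.54, 1.59, 0.93 and 0.87 (SE 0.17) and Gstt3 by 1.44, 1.36, 0.86 and 0.72 (SE 0.14). Ephx1 was higher with LG268 (0.69 ± 0.12) and TBT (0.51 ± 0.12) than with Rosi.

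For TBT against LG268 no member passed without the block. No member was called for TBT against LG268 on either day by limma, beside 0% of all genes at day 1 and 3.35% at day 4, and the members with an unadjusted p under 0.05 were 3 and 8. With the replicate block 3 members were called at day 4, all higher with TBT: Cyp2c55 (1.29 ± 0.41, adjusted p = 0.0134, and 0.0776 without the block), Ephx2 (0.98 ± 0.34, 0.0110 and 0.118) and Ces4a (0.51 ± 0.17, 0.0393 and 0.0854). Ces4a was tested only through groups where it is high, TBT at day 4 among them, so its value is a description. The 95% interval of the difference was -0.44 to -0.02 for Cyp1b1, -0.27 to 0.94 for Fmo1 and -0.52 to 1.84 for Cyp2f2.

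Whether a chemical's difference from vehicle changed between day 1 and day 4 was tested as an interaction. With Rosi 16 members changed, beside 30.0% of all genes. The day 4 difference exceeded that of day 1 by 5.91 ± 0.45 in Cyp2e1, 3.39 ± 0.59 in Cyp2c55, 3.297 ± 0.39 in Ces1d and 2.47 ± 0.49 in Ephx2, those of Cyp2e1 and Ces1d starting from background. The change was -1.64 ± 0.24 in Gstt1, -1.10 ± 0.20 in Gstt3, -1.10 ± 0.15 in Cyp1b1 and -0.85 ± 0.15 in Cyp4v3. Gstt1 and Cyp4v3 rose with Rosi at day 1 and fell at day 4, so that their direction turned. Fmo1, the largest rise at day 1, had a change of -0.62 ± 0.42 (adjusted p = 0.299). With TPhP, Cyp2c55 (2.83 ± 0.59) and Ces1g (-0.73 ± 0.21) changed, beside 4.49% of all genes. With MEHP, Cyp2c55 (2.65 ± 0.59), Cyp2e1 (1.65 ± 0.45), Ces1d (1.65 ± 0.39) and Ephx2 (1.54 ± 0.49) changed, beside 6.36%. Cyp2e1 and Ces1d were tested through groups where they are high, so their changes with Rosi and MEHP are descriptions. All 4 calls with MEHP were lost without pool 19 or pool 20 (adjusted p from 0.0788 to 0.402), and so were both with TPhP (0.0817 to 0.321). With LG268 and TBT no member changed by limma (0.0805% and 1.77% of all genes; 11 and 9 members at an unadjusted p under 0.05). With the replicate block the counts were 19 with Rosi, 1 with LG268, 3 with TBT and 5 with TPhP. The added ones were Fmo2, Gsta3 and Gstk1 with Rosi, Fmo2 with LG268, Cyp2f2, Ephx2 and Cyp2c55 with TBT, and Cyp2f2, Ephx2 and Cyp2e1 with TPhP. The 22 calls over the 5 chemicals became 14 without pool 19 and 11 without pool 20.

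Several members are neighbours in the genome, by the order of genes in RefSeq (GRCm38.p6), and neighbours did not always move together. Fmo1 and Fmo2 lie between Fmo4 and Fmo6, which were not tested; with Rosi at day 4 Fmo1 rose (1.59 ± 0.30) while Fmo2 differed by -0.57 ± 0.30, and with LG268 both rose. In the run Gstt3, Gstt1, Gstt4 and Gstt2, the first pair fell with Rosi while Gstt2 differed by 0.28 ± 0.27 (adjusted p = 0.417). In the Ces1 cluster, Ces1d and Ces1f rose and Ces1g fell with Rosi. Ces1e, which lies between Ces1d and Ces1f, differed by -0.13 ± 0.24 (limma adjusted p = 0.700). Ces1d and Ces1f were tested only through groups where they are high, Rosi at day 4 among them, and their vehicle arrays lay below the table's median. Ces1e and Ces1g had means over all arrays of 3.56 and 4.04, also below that median. The differences in this cluster are therefore of uncertain size and given as descriptions. Gsto1 and Gsto2 both rose with Rosi. Cyp2c55 was the only tested gene among 6 neighbouring Cyp2c members. Probe sets of such close relatives, as in the Ces1, Gstm, Gstp and Cyp2 families, may bind each other's RNA, so single members of them are uncertain.

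Genes that serve these enzymes were taken from hand-written lists. Their counts stand beside the shares of all genes given above, 21.3% rising and 27.7% falling with Rosi at day 4, and nothing is read from counts near those shares. Of 17 receptors and partners 14 were tested, and 9 rose and 3 fell with Rosi at day 4 (median 0.27), among them Ppara (3.44 ± 0.33), Cebpa (1.51 ± 0.15) and Nr1h3 (1.37 ± 0.15), which encodes LXRα. Ahr, the receptor that controls Cyp1b1, fell with every chemical at day 4, by differences of -1.02 ± 0.20 with Rosi, -0.89 ± 0.20 with LG268, -1.04 ± 0.20 with TBT, -0.66 ± 0.20 with TPhP and -0.63 ± 0.20 with MEHP. Pparg rose with Rosi (1.24 ± 0.14), TBT (0.86 ± 0.14), TPhP (1.23 ± 0.14) and MEHP (1.08 ± 0.14). At day 4 the list's counts were 1 and 1 with LG268, 5 and 2 with TBT, 7 and 1 with TPhP and 5 and 2 with MEHP for genes that rose and fell. With vehicle against naive cells, 3 rose at day 4, among them Tiparp, an AHR target (0.93 ± 0.17).

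Of 13 tested genes for electrons and cofactors, 4 rose and 5 fell with Rosi at day 4 (median 0.12). Me1, malic enzyme, which makes NADPH, rose by 2.76 ± 0.26 with Rosi, 0.90 ± 0.26 with LG268, 2.11 ± 0.26 with TBT, 2.31 ± 0.26 with TPhP and 2.42 ± 0.26 with MEHP. Papss2, which makes the sulfate donor of sulfotransferases, fell with Rosi (-1.65 ± 0.17), TBT (-0.86 ± 0.17), TPhP (-0.99 ± 0.17) and MEHP (-1.10 ± 0.17). Ugdh, which makes UDP-glucuronic acid, fell with Rosi (-0.77 ± 0.10), LG268 (-0.36 ± 0.10), TBT (-0.56 ± 0.10), TPhP (-0.37 ± 0.10) and MEHP (-0.48 ± 0.10). In the other comparisons of day 4 the list had 1 and 2 (LG268), 2 and 4 (TBT), 2 and 5 (TPhP) and 2 and 3 (MEHP) genes that rose and fell.

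Of 34 tested enzymes of other families, 10 rose and 12 fell with Rosi at day 4 (median -0.20). Aldh1a7, an aldehyde dehydrogenase, rose by 5.28 ± 0.50 with Rosi, 2.95 ± 0.50 with TBT, 4.20 ± 0.50 with TPhP and 4.42 ± 0.50 with MEHP. The microsomal glutathione transferases Mgst3 (2.71 ± 0.24) and Mgst1 (1.46 ± 0.13) rose with Rosi. With LG268 Adh1, an alcohol dehydrogenase, rose by 2.58 ± 0.56. Counts that rose and fell were 4 and 0 with LG268, 9 and 4 with TBT, 8 and 3 with TPhP and 9 and 6 with MEHP. In vehicle cultures at day 4, 15 rose and none fell against naive cells, as in Cbr2 (2.29 ± 0.29), a carbonyl reductase.

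Of 11 tested efflux transporters, which carry conjugates out of cells, 1 rose and 4 fell with Rosi at day 4 (median -0.05). Abcc3, a pump for glucuronides, fell with Rosi (-0.89 ± 0.12) and rose with LG268 (1.38 ± 0.12) and TBT (1.15 ± 0.12). It already rose at day 1 with LG268 (0.80 ± 0.12) and TBT (0.78 ± 0.12), when no member did. Abcg2 and Abcb1b, pumps of wide substrate range, fell with Rosi (-1.08 ± 0.15 and -1.24 ± 0.18). Counts that rose and fell were 2 and 0 with LG268, 3 and 3 with TBT, 1 and 2 with TPhP and 1 and 2 with MEHP.

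Over the 13 comparisons with vehicle or naive cells, 41 of the 52 tested members were called at least once, beside 68.4% of all genes tested. The 11 without a call were Ces1e, Cyp2b10, Cyp2d40, Cyp2r1, Cyp2w1, Cyp4f16, Cyp4x1, Ephx3, Gsta3, Gstm1 and Gstp2. Gstp2 (7.87 to 8.70 over the 52 arrays) and Gstm1 (6.70 to 7.58) were well above background in all of them. Cyp2r1, a vitamin D 25-hydroxylase, ran from 4.48 to 6.28. Cyp2b10, the standard target of the receptor CAR in liver, ran from 3.28 to 4.80 and was lower with LG268 than with Rosi at day 4 (-0.55 ± 0.19; call lost without pool 20, adjusted p = 0.180, or pool 15, 0.0547). Without the filter on low values, 11 of the 101 untested members were called in at least 1 comparison. The share over all untested genes is not given here, so nothing is read from this count. Cyp2c70 differed by 1.13 ± 0.18 with Rosi at day 4, and Cyp1a1 by 0.49 ± 0.12, both from levels near background. A further 15 probe sets carried a member's symbol together with other genes and were left out, among them both that cover the Ugt1a cluster (means of 4.48 and 4.90) and 1 for Gstp1 with Gstp2 (8.86).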

How the data were processed

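The authors deposited log2 array values. The submitters' processing notes name oligo and R 3.3.1, and the normalization is not given in the sources used here. Of 41345 probe sets, 23521 named 1 gene, and the probe set with the highest mean stood for each of 22180 genes. Genes needed at least 4 of 52 arrays above the table's median. One limma fit (3.58.1, R 4.3.3) of 13 group means used all arrays, with 39 residual degrees of freedom, and p-values were adjusted by Benjamini-Hochberg over 14911 genes. Contrasts were vehicle against naive, chemical against vehicle, chemical against chemical, and day 4 against day 1. The fit was tested on simulated data. Pool numbers come from the sample titles, and arrays of a pool share animals: in 45 of 52 arrays the closest deviations from group means were those of the same pool. For each comparison the text names the 4 members with the largest called differences in each direction that moved the same way in all pools, with other called members, and list genes, added by role after their values were seen. Members and lists were chosen with earlier results of these data known.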

Additional observations from a re-analysis of the deposited data

Results flagged for a closer look

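In 12 of 312 groups of 4 arrays, over the 24 members checked (3.85%), 1 array lay far from the other 3 by Dixon's criterion, which chance meets in about 1 in 20 groups. Ces1b in MEHP day 1 read 4.49 in pool 20 and 4.23 to 4.28 in the others. Ces1d in LG268 day 1 read 2.52 in pool 20 and 2.01 to 2.07 in the others. Cyp2d22 in LG268 day 4 read 6.69 in pool 12 and 7.21 to 7.30 in the others. Cyp2e1 in naive cells read 3.86 in pool 20 and 3.49 to 3.54 in the others. Cyp2f2 in Rosi day 4 read 5.07 in pool 15 and 6.08 to 6.28 in the others. Cyp4f13 in vehicle day 1 read 6.88 in pool 15 and 6.34 to 6.41 in the others. Ephx1 in vehicle day 1 read 9.12 in pool 12 and 9.22 to 9.23 in the others. Fmo1 in Rosi day 1 read 9.91 in pool 19 and 10.14 to 10.18 in the others. Fmo1 in LG268 day 4 read 9.83 in pool 12 and 10.25 to 10.29 in the others. Gstt1 in LG268 day 1 read 6.71 in pool 12 and 6.12 to 6.21 in the others. Sult1a1 in Rosi day 1 read 9.51 in pool 15 and 8.66 to 8.75 in the others. Sult1a1 in vehicle day 4 read 8.54 in pool 12 and 9.24 to 9.36 in the others. Pool 12 gave 5 of these arrays.

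The difference from vehicle changed between day 1 and day 4 in 22 cases, each by limma's test of the change itself (adjusted p under 0.05). With Rosi the day 4 difference was the higher one in Ces1d (3.297), Ces1f (2.04), Ces4a (1.45), Cyp2c55 (3.39), Cyp2e1 (5.91), Cyp4b1 (0.80), Ephx2 (2.47), Fmo5 (0.58) and Gsto1 (0.61), and the lower one in Ces1g (-1.02), Cyp1b1 (-1.10), Cyp4v3 (-0.85), Ephx1 (-0.45), Gstm4 (-0.58), Gstt1 (-1.64) and Gstt3 (-1.10). With TPhP the day 4 difference was the higher one in Cyp2c55 (2.83), and the lower one in Ces1g (-0.73). With MEHP the day 4 difference was the higher one in Ces1d (1.65), Cyp2c55 (2.65), Cyp2e1 (1.65) and Ephx2 (1.54). The day 1 and day 4 vehicle arrays enter each of them. Changed members were 30.8% of those tested with Rosi, 3.85% with TPhP and 7.69% with MEHP, beside 30.0%, 4.49% and 6.36% of all genes. Cyp2e1, Ces1d, Ces1f and Ces4a were tested through groups where they are high, so their changes are descriptions.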

How the results depend on the processing

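Of 51 named differences, 27 kept their call under every alternative run, and none reversed. With the pool as replicate block all 51 kept their call, and with probe sets averaged or under the stricter filter (40 covered) so did every one run. Calls were lost for 17 when each fit held only the arrays compared, for 1 each with cyclic loess and with no filter, and for 4, 10, 12 and 12 without pools 12, 15, 19 and 20. Counts of members called moved by over 1.5 times as follows; the cause was not tested. With only the compared arrays in the fit they were 16 for vehicle day 4 against naive, 3 for vehicle day 4 against day 1, 1 for TBT, 1 for TPhP and 2 for MEHP at day 1, and 2 for LG268, 4 for TPhP and 5 for MEHP at day 4. Vehicle day 1 against naive gave 7 with cyclic loess. TPhP at day 4 gave 7 with the stricter filter, which tests 8934 genes. MEHP at day 1 gave 1 with the replicate block. Leaving out each pool gave 5 to 13 for vehicle day 1 and 14 to 24 for vehicle day 4 against naive, and 3 to 11 for day 4 against day 1. At day 1 it gave 3 to 4 with Rosi, 0 to 1 with TPhP and 0 to 1 with MEHP. At day 4 it gave 21 to 31 with Rosi, 3 to 8 with LG268, 9 to 15 with TBT, 4 to 14 with TPhP and 7 to 19 with MEHP. The interactions gave 11 to 28 and the pairs 64 to 86. Signal near background limits Cyp2e1, Ces1d, Ces1f, Ces4a, Ces1g, Ugt8a and Cyp2s1. The rises of Fmo2 over naive cells, Gstt2 over vehicle day 1 and Cyp2f2 over vehicle start around the table's median, so their sizes are uncertain too.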
